A study of Mus musculus with 2 samples.

Results

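This report follows the MHC class II genes and the genes that load their peptides through the leukocytes of the mouse adrenal gland. The members were chosen by name and role: the classical chains H2-Aa, H2-Ab1 and H2-Eb1, the peptide editor H2-DM (H2-DMa, H2-DMb1 and H2-DMb2), its partner H2-O (H2-Oa and H2-Ob), the invariant chain Cd74 and the transactivator Ciita. They are 10 of the 32285 features counted, and all 10 were detected. Live CD45+ cells were sorted from adrenal glands of C57BL/6 mice aged 7 weeks and put through droplet single-cell RNA sequencing, with 1 library from female and 1 from male mice and no treatment or transgene in either. How many animals were pooled per library was not stated in the sources used here, so sex and library cannot be told apart, no test across animals was possible and no p-value is given.

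MHC class II molecules show peptides from the endosomes to CD4+ T cells. An alpha and a beta chain pair in the endoplasmic reticulum around the invariant chain, whose remnant (CLIP) then sits in the groove. H2-DM removes CLIP and edits the peptides that follow, and H2-O binds H2-DM and holds it back. Ciita switches many of these genes on by docking on factors that sit at short shared promoter elements, the X box and the Y box. Dendritic cells, B cells and many macrophages are the professional antigen-presenting cells that use this pathway, and mouse T cells and NK cells are not known for it.

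Levels are unique molecular identifiers (UMIs, each standing for 1 captured transcript) summed over the cells of a class and given as counts for every 1000000 UMIs of that class (CPM). UMIs were read from the 3′ end, so a value counts molecules and is not divided by transcript length, but capture can differ from gene to gene and ratios of 2 genes are therefore read between classes. Intervals are exact 95% intervals and cover counting error only. After filtering, 3694 female and 2449 male cells with medians of 3489.5 and 3008 UMIs were used, and 2 barcodes occurred in both libraries. Classes were gated on at least 3 marker genes, none of them a member, and 89.8% of female and 86.7% of male cells fell in a class.

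The macrophages of the adrenal gland were kept as 3 groups. The Lyve1 macrophages (79 female and 125 male cells) and the Aldh1a2 macrophages (89 and 105) were gated on subset markers, and the other macrophages (657 and 556) held the rest. C1qa, a complement component typical of tissue macrophages, stood at 5356 CPM in female and 5555 CPM in male other macrophages. In the Aldh1a2 group it stood at only 975.1 and 1015 CPM, and the 13 macrophage markers summed to 7322 and 7414 CPM against 52610 and 42160 CPM in the other macrophages. The Aldh1a2 group is therefore named here for its gate and not as a macrophage of the same kind. The remaining classes compared were monocytes (196 and 127 cells), type 1 (29 and 23) and type 2 (59 and 47) dendritic cells, B cells (512 and 265), T cells (747 and 401), NK cells (782 and 341) and innate lymphoid cells (51 and 35). Outside the 10 classes compared, neutrophils (45 and 50), endothelial cells (36 and 39), mast cells or basophils (22 and 5) and plasmacytoid dendritic cells (14 and 5) were gated too.

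Of the 10 genes, 8 lie in the MHC on chromosome 17 of the GRCm38 (mm10) build. From the centromeric side these were H2-Oa (34092340 to 34095234), H2-DMa (34119541 to 34139101), H2-DMb2 (34143307 to 34151555), H2-DMb1 (34153072 to 34160230), H2-Ob (34238903 to 34254414), H2-Ab1 (34257689 to 34269419), H2-Aa (34282744 to 34287823, minus strand) and H2-Eb1 (34305867 to 34316674). Ciita lies on chromosome 16 (10480059 to 10528418). H2-DMb1 and H2-DMb2 are close copies of each other. Of 446 stretches of 55 bases (the length of the insert read) in the last 500 bases of the H2-DMb1 transcript, 87 (19.5%) also occur in H2-DMb2, while 0 of the 446 at the end of H2-DMb2 occur in H2-DMb1. Reads from such stretches cannot be placed, so the counts of H2-DMb1 may be low, and this bears on the H2-DMb2 to H2-DMb1 ratio in every class alike.

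Promoter windows from 250 bases before to 50 after the start were found in the RefSeq table (GRCm38.p6) for 7 members, as 8 windows. They were searched on both strands for AACNNATGATG, letters of an X box, and for GATTGG, the inverted CCAAT of a Y box, which do not overlap each other. The letters were settled on after the member windows had been seen, so the count among members is a description. GATTGG was in 7 of the 8 windows and AACNNATGATG in 4, while of all 32851 windows of this length 0.137% held AACNNATGATG, 16.1% held GATTGG and 0.0335% (11 windows) held both. The stretches around a GATTGG match are shown for 6 genes, 4 with both matches (H2-Eb1, H2-DMb1, H2-DMb2 and H2-Ob) and 2 with GATTGG alone (H2-Aa and H2-Oa), to set the layouts side by side and to show how nearly alike the H2-DMb1 and H2-DMb2 promoters are. In these the GATTGG shown ended 39 to 86 bases before the start. In 1 of the 2 windows of H2-DMa GATTGG ended 194 bases before the start with no AACNNATGATG, and the other held neither, so H2-DMa is not printed. Each reads 5′ to 3′ on the strand of the gene, with the matches in capitals.
H2-Aa, chr17:34287857-34287926, minus strand: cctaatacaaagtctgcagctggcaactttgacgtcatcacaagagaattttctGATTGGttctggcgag
H2-Eb1, chr17:34305753-34305822, plus strand: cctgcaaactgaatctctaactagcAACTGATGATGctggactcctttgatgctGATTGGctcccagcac
H2-DMb1, chr17:34153075-34153144, plus strand: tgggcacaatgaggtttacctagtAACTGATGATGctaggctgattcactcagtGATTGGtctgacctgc
H2-DMb2, chr17:34145104-34145173, plus strand: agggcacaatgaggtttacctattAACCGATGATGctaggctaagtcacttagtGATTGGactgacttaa
H2-Oa, chr17:34092281-34092350, plus strand: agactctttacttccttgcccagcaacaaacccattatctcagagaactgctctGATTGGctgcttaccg
H2-Ob, chr17:34238793-34238862, plus strand: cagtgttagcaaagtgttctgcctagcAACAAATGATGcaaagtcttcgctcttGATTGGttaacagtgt

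The distance between the 2 matches shown was 18 bases in H2-Eb1, 19 in both H2-DMb1 and H2-DMb2, and 16 in H2-Ob. The H2-Eb1 window held 2 GATTGG matches, of which 1 lies outside the stretch shown. H2-DMb1 and H2-DMb2 thus carried both matches at the same spacing, although their levels went opposite ways between macrophages and B cells, as shown further on. A window without a match says only that these letters are not in it.

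The classical chains were abundant in every antigen-presenting class and low in lymphocytes other than B cells. H2-Aa, the alpha chain of I-A, stood highest in female type 2 dendritic cells at 10010 CPM, followed by type 1 dendritic cells at 7983 CPM, other macrophages at 6978 CPM and Lyve1 macrophages at 6703 CPM, the last 2 with overlapping intervals. In the male library the other macrophages led at 11730 CPM, with type 2 dendritic cells at 11440 CPM within counting error of them, and type 1 dendritic cells (8224 CPM) and Lyve1 macrophages (7688 CPM) came next and overlapped. Aldh1a2 macrophages held 5739 and 7232 CPM, B cells 3360 and 3836 CPM, and monocytes 850 and 1346 CPM. T cells held 99.2 and 117 CPM and did not differ beyond counting error from NK cells at 101.7 and 118 CPM.

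H2-Ab1, the beta chain of I-A, and H2-Eb1, the beta chain of I-E, ranged over the same span. Other macrophages held 5603 CPM of H2-Ab1 in the female and 9998 CPM in the male library, and B cells 2214 and 2597 CPM. For H2-Eb1 the values were 5621 and 9927 CPM in the former and 2649 and 2900 CPM in the latter. The dendritic types differed in all 3 chains. Type 1 cells held 0.648 (interval 0.60 to 0.70) of the type 2 level of H2-Eb1 in the female library and 0.655 (0.604 to 0.710) in the male, 0.798 (0.748 to 0.851) and 0.719 (0.669 to 0.772) of that of H2-Aa, and 0.878 (0.819 to 0.941) and 0.716 (0.663 to 0.774) of that of H2-Ab1. H2-Ea, which would encode the alpha chain of I-E, was not among the features counted and is not analysed here. Whether H2-Eb1 transcripts go with an I-E molecule in these cells was therefore not tested.

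Cd74, on chromosome 18 (60803848 to 60812652) and outside the MHC, gave the most UMIs of all members in each antigen-presenting class. It stood at 15860 CPM in female and 25730 CPM in male other macrophages, at 20050 and 25300 CPM in type 2 dendritic cells, and at 9837 and 11030 CPM in B cells. T cells held 187 and 210 CPM. Ciita was low everywhere but followed the same split. It was 199 and 249 CPM in type 2 dendritic cells and 171 and 211 CPM in type 1 dendritic cells, whose intervals overlapped. B cells held 122 and 133 CPM, other macrophages 96.1 and 172 CPM, and monocytes 17.4 and 42.0 CPM, while T cells held 3.20 and 3.01 CPM and no UMI fell in innate lymphoid cells (the limit that a count of 0 allows is wide, with interval bounds of 28.5 and 32.6 CPM). B cells thus held less of the classical chains than other macrophages (0.452-fold in the female and 0.295-fold in the male library) while for Ciita the libraries went opposite ways, at 1.27-fold (1.06 to 1.53) in the female and 0.777-fold (0.613 to 0.976) in the male.

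**Figure D1:**
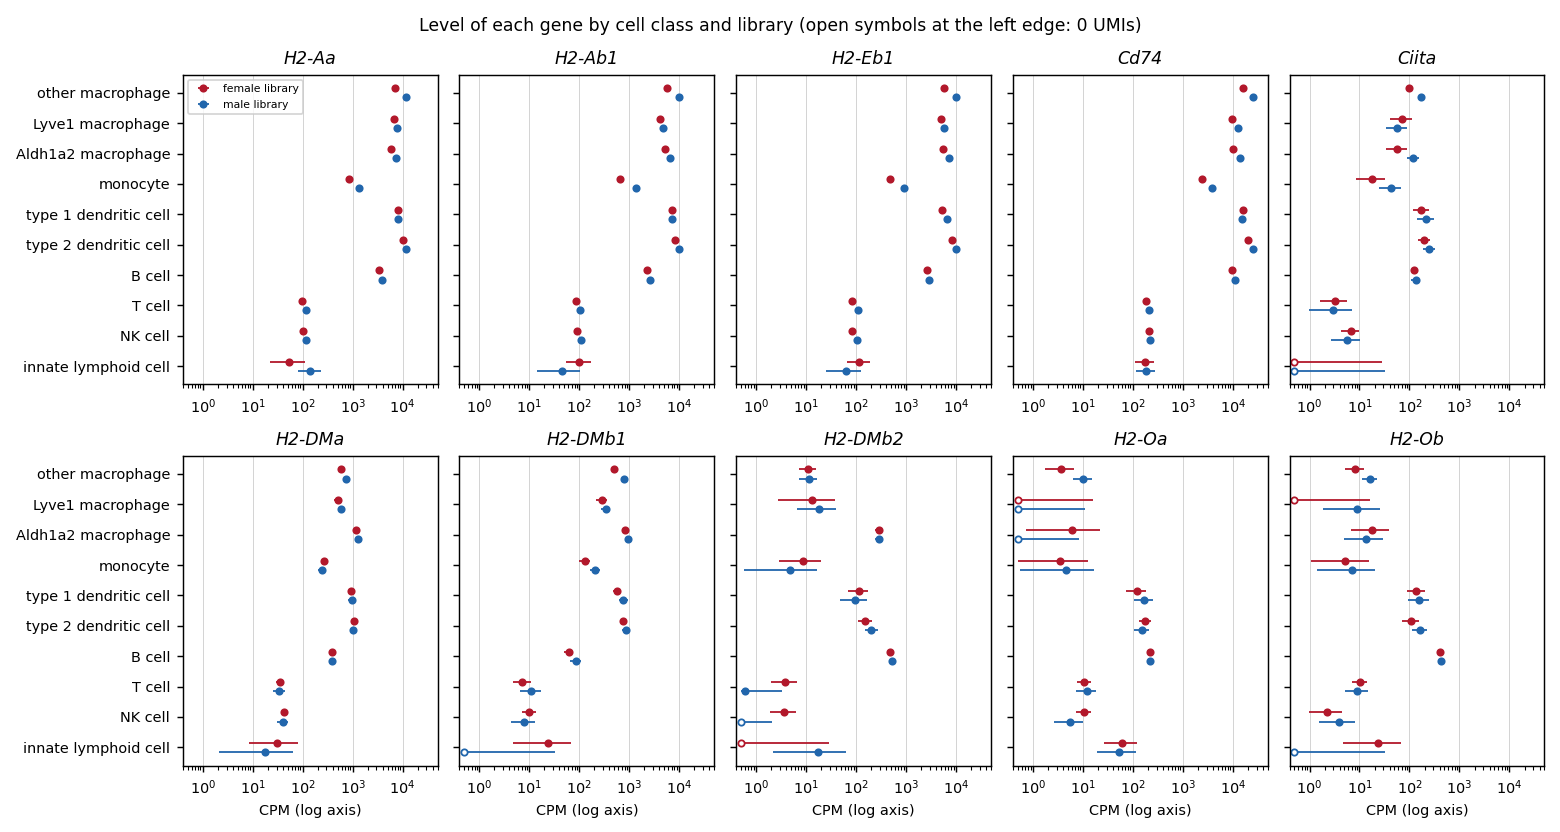
Level of each of the 10 genes in CPM (log axis) in 10 cell classes, with the female library in red and the male in blue. Points are summed UMIs, bars are exact 95% Poisson intervals, and open symbols at the left edge mark 0 UMIs. H2-DMb2 (470 and 532 CPM) and H2-Ob (399 and 421 CPM) stand highest in B cells, where H2-DMb1 is low. H2-Oa in B cells overlaps type 2 dendritic cells in both libraries and type 1 dendritic cells in the male library only.

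H2-DM was not a fixed fraction of the classical chains. H2-DMa, the alpha chain of the editor, was highest in Aldh1a2 macrophages at 1183 CPM in the female and 1303 CPM in the male library. Type 2 dendritic cells followed at 1060 and 1027 CPM, and their interval overlapped that of the Aldh1a2 macrophages in the female library (941 to 1190 against 1069 to 1306 CPM) but not in the male (901 to 1166 against 1199 to 1413 CPM). Type 1 dendritic cells, at 942 and 959 CPM, overlapped type 2 cells. Other macrophages held 575 and 733 CPM, Lyve1 macrophages 516 and 580 CPM, B cells 388 and 392 CPM, and monocytes 270 and 247 CPM. From other macrophages to Aldh1a2 macrophages the summed H2-DM level went up 2.13-fold (1.96 to 2.30) and 1.66-fold (1.55 to 1.78), while the classical chains went down to 0.909-fold (0.884 to 0.934) and 0.666-fold (0.651 to 0.680) and Ciita to 0.595-fold (0.353 to 0.948) and 0.682-fold (0.4998 to 0.913).

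Set against the summed classical chains, H2-DM came to 5.89 UMIs per 100 chain UMIs in female other macrophages (interval 5.68 to 6.12) and 4.78 in male ones (4.62 to 4.95). Lyve1 macrophages were close to this, at 5.12 and 5.13. Aldh1a2 macrophages had 13.8 (12.8 to 14.9) and 11.9 (11.2 to 12.7), with no overlap with the other macrophage groups in either library. Type 1 dendritic cells had 7.90 and 8.27 and type 2 dendritic cells 7.42 and 6.60. B cells, with fewer chains, had 11.2 (10.6 to 11.8) and 10.8 (10.0 to 11.7).

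Monocytes had 20.4 H2-DM UMIs per 100 chain UMIs in the female and 12.8 in the male library, but few cells set this value. The 5 cells richest in chains held 38.3% of the female and 49.5% of the male chain UMIs of the class, and without them the ratio was 28.9 and 20.3. Within monocytes the chains and the editor parted. Nonclassical monocytes (86 female and 70 male cells) held 2.71-fold and 2.55-fold the classical chain level of classical monocytes (99 and 42 cells), while H2-DM was 0.997-fold (0.752 to 1.32) and 0.697-fold (0.499 to 0.969). In the classical monocytes 5 cells held 75.4% and 84.2% of the chain UMIs, and in the nonclassical ones 54.4% and 64.7%, so the chain level on both sides was that of few cells. Without the 5 richest cells of each subset, an alternative chosen after seeing the data, the chain ratio was 5.33 (4.24 to 6.74) and 5.64 (4.22 to 7.66) and the H2-DM ratio 0.723 (0.495 to 1.04) and 0.695 (0.438 to 1.10).

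**Figure D2:**
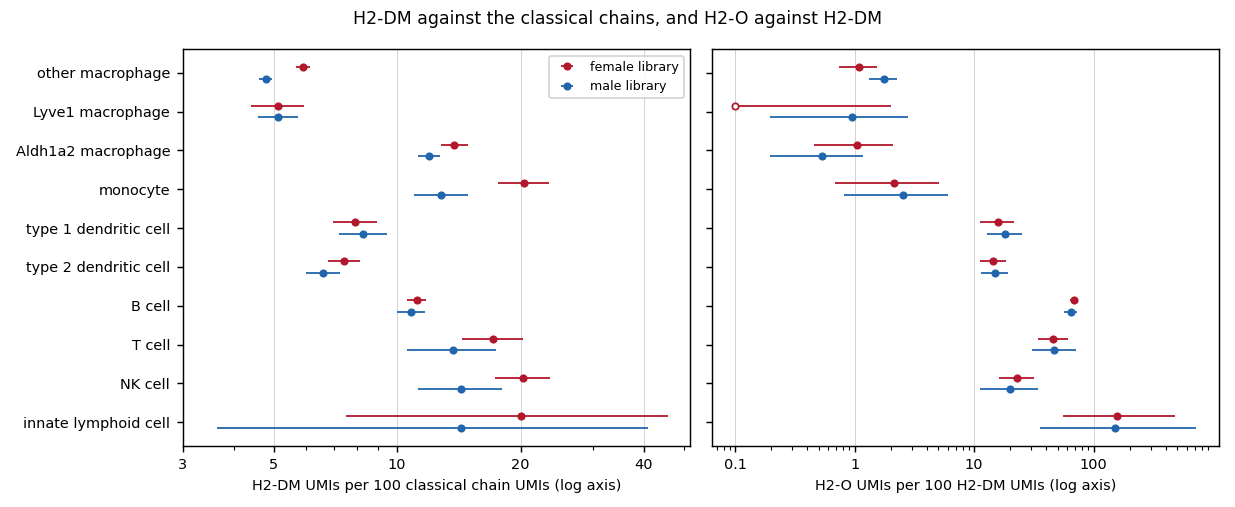
Left, H2-DM UMIs per 100 classical chain UMIs; right, H2-O UMIs per 100 H2-DM UMIs, by class and library on log axes, with exact conditional binomial 95% intervals (open symbol: 0 UMIs). The right panel separates B cells (68.0 and 64.1) from dendritic cells (14.4 to 18.1) and all macrophage groups (at most 1.76).

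The beta chain of H2-DM changed identity between classes. In other macrophages H2-DMb1 stood at 487 CPM in the female and 770 CPM in the male library, and H2-DMb2 at 10.9 and 11.2 CPM. In B cells H2-DMb1 stood at 60.9 and 85.6 CPM, and H2-DMb2 at 470 and 532 CPM. From other macrophages to B cells H2-DMb2 was therefore 43.0-fold (29.9 to 64.2) and 47.5-fold (31.5 to 75.1) higher, while H2-DMb1 was 0.125-fold (0.102 to 0.153) and 0.111-fold (0.0847 to 0.144), and the shared alpha chain H2-DMa 0.675-fold and 0.534-fold. H2-DMb2 made up 88.5% of the beta chain UMIs in female B cells (810 of 915) and 86.1% in male ones (379 of 440), against 2.19% (30 of 1368) and 1.43% (24 of 1675) in other macrophages. The sums hid this: total H2-DM in B cells was 0.857-fold and 0.667-fold that of other macrophages.

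Aldh1a2 macrophages and dendritic cells lay between. H2-DMb2 was 26.3% (96 of 365) and 23.5% (127 of 540) of the beta chain UMIs in Aldh1a2 macrophages, and its level of 289 and 286 CPM was 26.5-fold (17.4 to 41.3) and 25.5-fold (16.4 to 41.3) that of other macrophages. Type 2 dendritic cells had a share of 16.6% and 19.4%, and type 1 dendritic cells 16.7% and 11.0%. Lyve1 macrophages had 4.41% (3 of 68) and 5.04% (6 of 119). The ordering was the same in both libraries for B cells over Aldh1a2 macrophages over Lyve1 and other macrophages, with the Lyve1 and other macrophage intervals overlapping in the female and in the male library.

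The female Aldh1a2 macrophages carried B lineage transcripts. The 10 B cell markers summed to 10750 CPM in the female Aldh1a2 macrophages, with only Pax5 at 0, against 142 CPM in the male ones, where Ms4a1 and Ighd were among those at 0. Of 7967 UMIs of Igkc, the immunoglobulin kappa constant chain, in the female group, 99.5% fell in 5 cells. The male Aldh1a2 macrophages, with 2 Cd79a UMIs in all, had as high a level of H2-DMb2 as the female ones. The 10 type 2 dendritic cell markers summed to 626 and 765 CPM in Aldh1a2 macrophages. Their sum was 282 and 582 CPM in other macrophages and 3120 and 3916 CPM in type 2 dendritic cells. Lyve1 macrophages held 1641 and 2429 CPM, so these transcripts were not particular to the Aldh1a2 group. In female Aldh1a2 macrophages 8 of these markers held UMIs and in male ones 7, with Flt3 and Ffar2 at 0 in both. Irf4 stood at 162.5 and 146.3 CPM in Aldh1a2 macrophages (54 and 65 UMIs). In type 2 dendritic cells it stood at 106.7 and 77.38 CPM (29 and 18 UMIs), counts too small to rank the classes here. Irf8 stood at 36.11 and 24.75 CPM in Aldh1a2 macrophages against 1228 and 1731 CPM in type 1 dendritic cells. The part of B lineage or dendritic cell transcripts in the H2-DM level of the Aldh1a2 group was not tested.

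The same exchange was seen cell by cell. Among B cells 58.0% in the female and 50.2% in the male library held UMIs of H2-DMb2 alone, 4.69% and 6.04% of H2-DMb1 alone, and 14.1% and 13.2% of both. Among other macrophages 60.0% and 69.8% held H2-DMb1 alone and 0.913% and 0.180% H2-DMb2 alone. In Aldh1a2 macrophages 40.4% and 51.4% of cells held both, against 36.0% and 34.3% with H2-DMb1 alone and 5.62% and 3.81% with H2-DMb2 alone. With every cell thinned to 1000 UMIs (495 female and 253 male B cells reached this depth, and 611 and 490 other macrophages), 41.0% and 42.7% of B cells and 1.31% and 0.816% of other macrophages held H2-DMb2. T cells, which should lack it, held it in 0.805% and 0.254% of cells, and by level the other macrophages (10.9 and 11.2 CPM) lay above the T cells (3.78 and 0.602 CPM) in both libraries.

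**Figure D3:**
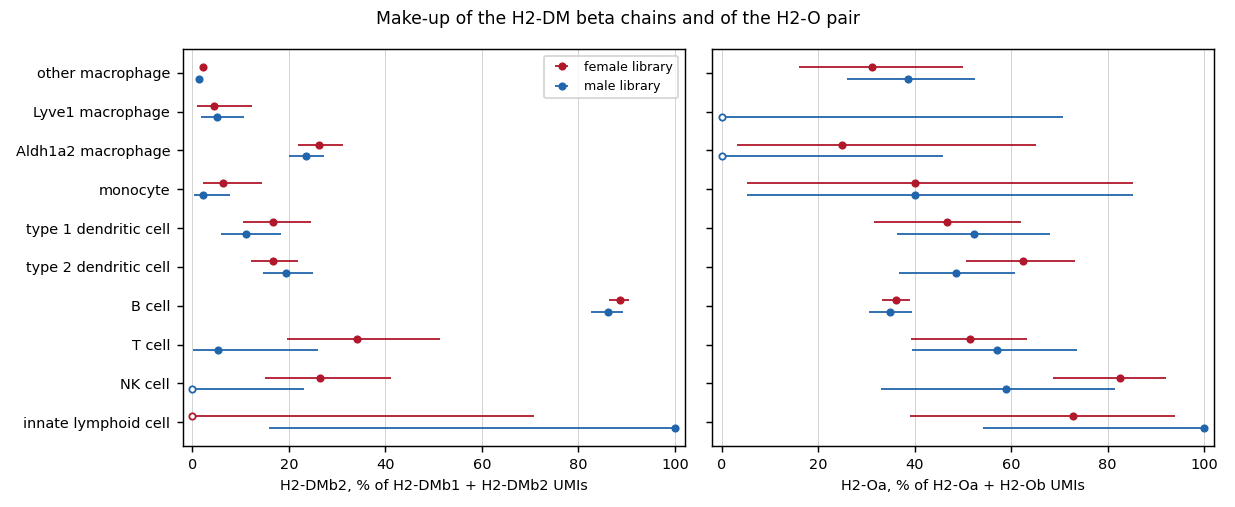
Left, H2-DMb2 as a percentage of the UMIs of H2-DMb1 and H2-DMb2; right, H2-Oa as a percentage of the UMIs of H2-Oa and H2-Ob, by class and library, with exact binomial 95% intervals (open symbol: 0%). B cells lie at 88.5% and 86.1% on the left and macrophage groups at or under 26.3%.

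H2-O was concentrated in B cells and dendritic cells. H2-Oa, its alpha chain, stood at 225 CPM in female and 226 CPM in male B cells, at 177 and 151 CPM in type 2 dendritic cells, and at 120 and 172 CPM in type 1 dendritic cells. The H2-Oa interval of B cells overlapped that of type 2 dendritic cells in both libraries and that of type 1 dendritic cells in the male. H2-Ob, its beta chain, stood at 399 and 421 CPM in B cells, 107 and 159 CPM in type 2 and 137 and 156 CPM in type 1 dendritic cells. Other macrophages held 3.64 and 10.3 CPM of H2-Oa and 8.01 and 16.3 CPM of H2-Ob. Lyve1 macrophages had 0 UMIs of H2-Oa in both libraries, where 3 UMIs would have been 13.1 and 8.92 CPM. From other macrophages to B cells summed H2-O was 53.6-fold (37.8 to 78.8) and 24.3-fold (18.4 to 32.6) higher, and to type 2 dendritic cells 24.3-fold (15.9 to 38.0) and 11.6-fold (8.11 to 16.8). Of the classical chains, type 2 dendritic cells held 1.46-fold and 0.989-fold as much as other macrophages.

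Against its target, H2-O came to 68.0 UMIs per 100 H2-DM UMIs in female B cells (62.8 to 73.5) and 64.1 in male ones (56.9 to 72.2). In type 1 dendritic cells it was 15.8 and 18.1, and in type 2 dendritic cells 14.4 and 14.97, with overlapping intervals between the types. In other macrophages it was 1.08 (0.741 to 1.54) and 1.76 (1.33 to 2.28), in Aldh1a2 macrophages 1.05 and 0.536, and in monocytes 2.15 and 2.54. B cells and Aldh1a2 macrophages thus shared a high H2-DM ratio to the chains and a sizeable part of H2-DMb2, but lay far apart in H2-O. The 1.2% mitochondrial ceiling leaves 16 male B cells and 27 male type 2 dendritic cells. Under it the H2-O ratio to H2-DM was lower in both, with the values in the last section.

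The H2-O chains were not counted in equal numbers. H2-Oa was 36.0% of the H2-O UMIs in female B cells (388 of 1077) and 34.9% in male ones (161 of 461). In type 1 dendritic cells it was 46.7% and 52.4%, and in type 2 dendritic cells 62.3% (48 of 77; interval 50.6 to 73.1) and 48.6% (35 of 72; 36.7 to 60.7). Each of these values lay above the B cell interval of its library (33.2 to 39.0% and 30.6 to 39.5%), but only the female type 2 interval was clear of it. Among female B cells 34.4% held UMIs of both chains, 33.2% of H2-Ob alone and 11.7% of H2-Oa alone, and in male B cells the values were 24.5%, 35.5% and 10.9%. After thinning, H2-Ob was in 37.6% and 40.3% of B cells (67.6% and 60.0% without thinning), in 1.31% and 2.04% of other macrophages, and in 1.34% and 1.27% of T cells and 0.129% and 0.588% of NK cells.

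Within B cells, follicular-type cells (328 female and 193 male) were set against innate-like cells (105 and 26). The follicular-type cells held a UMI of Ighd, Fcer2a or Cr2 and none of Zcwpw1, Zbtb32 or Bhlhe41. The innate-like cells held a UMI of Zcwpw1, Zbtb32 or Bhlhe41 and none of Fcer2a or Cr2. Levels of the chains, H2-DM and Ciita were higher in the follicular-type cells. The classical chains were 1.65-fold (1.59 to 1.71) and 1.75-fold (1.64 to 1.87) higher, H2-DM 1.71-fold (1.53 to 1.92) and 1.44-fold (1.19 to 1.74), and Ciita 2.39-fold (1.73 to 3.35) and 2.54-fold (1.39 to 5.00). H2-O per 100 H2-DM UMIs was 74.0 and 70.7 in follicular-type cells and 59.2 and 41.7 in innate-like cells, with intervals that did not overlap in the male library (61.2 to 81.7 against 30.6 to 56.3) and did in the female (66.8 to 81.9 against 50.9 to 68.7). The H2-DMb2 share was high in both, at 87.0% and 85.8% and at 91.7% and 94.4%. The subsets differed in depth, with medians of 2027 and 1652 UMIs in follicular-type and 6860 and 6588 in innate-like cells. Gates that ask for a UMI of some genes and none of others can sort cells by depth. The part of depth in these differences was not tested.

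T cells, NK cells and innate lymphoid cells held low counts of all chains. The classical chains summed to 268 and 331 CPM in T cells, 277 and 333 CPM in NK cells and 270 and 247 CPM in innate lymphoid cells. Per 100 UMIs of C1qa the chains came to 677 and 603 in T cells and 768 and 600 in NK cells, against 489 and 350 in neutrophils and 340 and 570 in other macrophages. H2-DMa per 100 C1qa UMIs was 88.2 and 61.5 in T cells and 118 and 71.7 in NK cells, but 10.7 and 13.2 in other macrophages and 11.1 in female neutrophils (1 UMI). H2-DMa per 100 Cd79a UMIs was 13.97 and 13.89 in B cells and 667 and 1120 in T cells. T cells held 120 and 56 UMIs of H2-DMa (34.9 and 33.7 CPM) and NK cells 153 and 71 (42.5 and 39.8 CPM). The part of free RNA in these counts, whether from macrophages, B cells, dendritic cells or the Aldh1a2 group, was not tested. H2-DMa overlaps Brd2, CR974462.4 and Gm20493 on the opposite strand, and whether reads of these genes contribute was not tested.

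H2-O was sparse in these lymphocytes. Per 100 UMIs of Cd79a, a B cell receptor component, H2-O came to 22.4 and 23.0 in B cells and to 400 (72 on 18 UMIs) and 700 (35 on 5) in T cells. In female NK cells 38 of 46 H2-O UMIs were H2-Oa (82.6%, interval 68.6 to 92.2), clear of the 36.0% in B cells, and in male NK cells 10 of 17 (58.8%, 32.9 to 81.6). In T cells H2-Oa was 51.4% (37 of 72; 39.3 to 63.4) and 57.1% (20 of 35; 39.4 to 73.7) of the H2-O UMIs, intervals that hold an even split of the chains. Innate lymphoid cells had 8 H2-Oa UMIs in the female and 6 in the male library, or 61.8 and 53.0 CPM, which was 5.85-fold (2.36 to 12.7) and 9.46-fold (2.83 to 28.7) the NK cell level, with 3 and 0 UMIs of H2-Ob. H2-Oa overlaps BC051537 on the opposite strand, whose part was not tested. Plasmacytoid dendritic cells (14 and 5 cells) gave 4 and 3 UMIs of H2-Oa and 0 of H2-Ob.

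The female and male libraries were then compared class by class. A gene was counted as past the fold where the levels differed at least 1.5-fold with an interval that excluded 1, among genes with at least 50 UMIs in the class over both libraries. In other macrophages 7 of the 9 members that could be tested were higher in the male library, H2-Aa, H2-Ab1, H2-Eb1, H2-DMb1, H2-Ob, Cd74 and Ciita, where 3.79% of 7577 genes were, and the median log2 ratio of female to male was -0.75 over these members and -0.05 over all genes tested. The classical chains summed to 18200 CPM in the female and 31660 CPM in the male library, a ratio of 0.575 (0.568 to 0.582). Cd74 had a ratio of 0.616, Ciita of 0.560 (0.476 to 0.657) and H2-DMb1 of 0.632. H2-DMa moved less, at 0.785 (0.731 to 0.842), and the H2-DM sum had a ratio of 0.709 (0.674 to 0.745). Under the 1.2% mitochondrial ceiling, which leaves 47 and 59 of these cells, the ratio of the chains was 0.354 and that of H2-DM 0.602. H2-DMb2, with 30 and 24 UMIs, had a ratio of 0.975 (0.551 to 1.74).

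The count in other macrophages rested on 1 group of cells. Graph clusters were made without the member genes, and 5 of them were named other macrophage and held 1008 of the 1213 gated cells. Of these 5 clusters, 1 held 146 female and 3 male cells. Of the gated other macrophages, 132 female and 2 male cells lay in it, and there the chains summed to 5747 CPM in the female library against 22400 CPM in the other female cells. Without that cluster, an alternative chosen after seeing the data, 0 of 8 members were past the fold, where 3.35% of genes were higher in the male library. The chains then had a ratio of 0.706 (0.698 to 0.715), Cd74 of 0.724 (0.715 to 0.734), Ciita of 0.674 (0.570 to 0.796) and H2-DM of 0.801 (0.760 to 0.844), all still lower in the female library but under 1.5-fold. H2-O stayed past it as a sum, at 0.511 (0.313 to 0.816) against 0.438 (0.275 to 0.687) with the cluster, while H2-Ob went from 0.490 (0.274 to 0.860) to 0.564 (0.305 to 1.01), an interval that includes 1. With 1 library per sex, cells particular to a sex and cells particular to a library cannot be told apart.

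Monocytes showed the same direction in 5 of 6 members tested (H2-Aa, H2-Ab1, H2-Eb1, H2-DMb1 and Cd74), where 4.12% of genes were higher in the male library. H2-DMa, with 155 and 106 UMIs, was the exception at 1.09 (0.846 to 1.41). The summed chains had a ratio of 0.553 (0.512 to 0.598) and of 0.655 without the 5 richest cells of each library, and 0.319 under a stricter gate. The subsets were mixed differently, with 99 classical and 86 nonclassical cells in the female and 42 and 70 in the male library. Within classical monocytes 3 of 6 members were past the fold (H2-Ab1, H2-Eb1 and H2-DMb1), where 4.03% of genes were higher in the male library, and within nonclassical ones 2 of 6 (H2-Ab1 and H2-Eb1), where 3.27% were. H2-Aa (0.695 and 0.766) and Cd74 (0.684 and 0.756) stayed under 1.5-fold in both subsets. The ratio of the summed chains was 0.615 (0.532 to 0.712) in classical and 0.655 (0.592 to 0.723) in nonclassical monocytes. Few cells set these ratios too. Without the 5 richest cells of each library, an alternative chosen after seeing the data, the chain ratio was 0.846 (0.602 to 1.201) in classical and 0.7998 (0.683 to 0.937) in nonclassical monocytes. In classical monocytes H2-Ab1 was then at 0.819 (0.421 to 1.66), H2-Eb1 at 0.753 (0.406 to 1.44) and H2-DMb1 at 0.785 (0.369 to 1.75), all under 1.5-fold with intervals that include 1. In nonclassical monocytes H2-Ab1, at 0.672 (0.516 to 0.873), fell just short of 1.5-fold, and H2-Eb1 was at 0.650 (0.459 to 0.916). In Aldh1a2 macrophages 1 of 8 members was past the fold, Ciita at 0.489 (0.273 to 0.841, 19 and 52 UMIs), where 3.73% of genes were, and the chains had a ratio of 0.785. In Lyve1 macrophages 0 of 6 members were past the fold, where 6.8% of genes were higher in the male library. The chains there had a ratio of 0.874 (0.838 to 0.910) and Cd74 of 0.745 (0.708 to 0.785), lower in the female library but under 1.5-fold. H2-DM had a ratio of 0.872 (0.723 to 1.05), an interval that includes 1.

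B cells had 0 of 10 members past the fold, with 4.11% of genes higher in the male library, and the chains had a ratio of 0.881 (0.856 to 0.907). Under the 1.2% mitochondrial ceiling, which leaves 4 female and 16 male B cells, that ratio was 0.146 (0.0967 to 0.212). The count was 0 of 7 in type 1 dendritic cells (4.1% of genes), 0 of 10 in type 2 dendritic cells (4.89%), 0 of 7 in T cells (2.71%) and 0 of 6 in NK cells (3.95%). No member was past the fold in the female direction in any of these classes, which is near the background. Of all genes, 93 of 4774 were in B cells, 21 of 634 in type 1 and 48 of 1227 in type 2 dendritic cells. In T cells 140 of 7499 were, and in NK cells 93 of 7881. Whether the ratio in other macrophages differs from that in B cells was not tested, since each rests on the same 2 libraries.

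**Figure D4:**
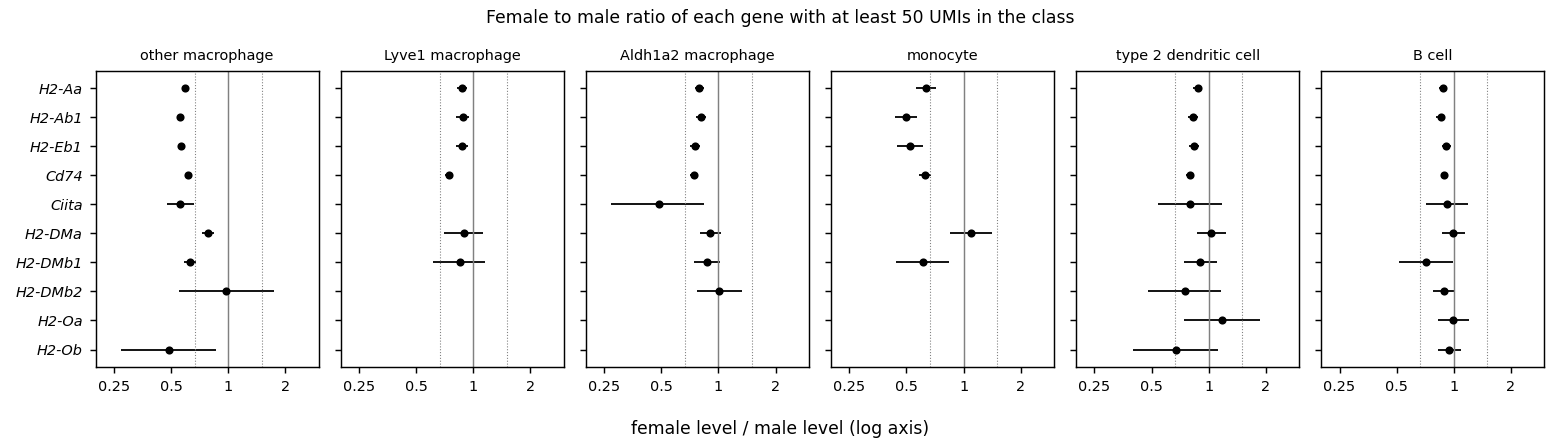
Ratio of the female to the male level (log axis) of each member with at least 50 UMIs in the class, with exact conditional binomial 95% intervals; dotted lines mark 1.5-fold either way. In all other macrophages, the cluster of 146 female and 3 male cells included, the classical chains, Cd74, Ciita and H2-DMb1 lie between 0.560 and 0.632 and H2-DMa at 0.785, while in B cells no gene passes 1.5-fold at the 15% mitochondrial ceiling drawn here.

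Other macrophages were then laid out by chain level. Cells were thinned to 1000 UMIs and sorted by how many of these were classical chains, so the spread of cells over the bins is the chain difference in another form, and the values within bins are descriptions. Cells with 0 to 4 chain UMIs were 27.5% of the female (168 of 611) and 4.69% of the male (23 of 490) cells, and cells with 30 or more were 26.0% (159) and 52.2% (256). Summed over all their UMIs, H2-DM rose along the bins from 390 CPM to 992, 1373 and 1610 CPM in the female library and from 333 CPM to 1064, 1281 and 1788 CPM in the male. The H2-DM level rose less than the chains did, from 43.5 H2-DM UMIs per 100 chain UMIs in the lowest female bin to 4.07 in the highest, and from 14.2 to 4.42 in the male, a ratio whose denominator the sorting used.

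The chains themselves were unequal within the lowest bin, at 897 CPM in the female and 2350 CPM in the male library (ratio 0.382, interval 0.326 to 0.448). In H2-DM the libraries lay closer within a bin. The ratio of female to male was 1.17 (0.801 to 1.78) in the lowest bin, 0.932 (0.786 to 1.11) and 1.07 (0.976 to 1.18) in the middle bins and 0.901 (0.837 to 0.969) in the highest, against 0.709 for the class as a whole. Ciita went from 5.02 CPM (4 UMIs) in the lowest female bin to 152 CPM in the highest, with a ratio of 0.438 (0.0433 to 21.6) in the lowest bin, and its ratios of 0.975, 0.878 and 0.810 from the second bin up had intervals that included 1. Other transcripts moved with the library too. The 8 classical monocyte markers summed to 822 CPM in female and 334 CPM in male other macrophages, and the 10 B cell markers to 1163 and 306 CPM, with 98.3% of the female Igkc UMIs in 5 cells. Their part in the female to male ratio was not tested.

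**Figure D5:**
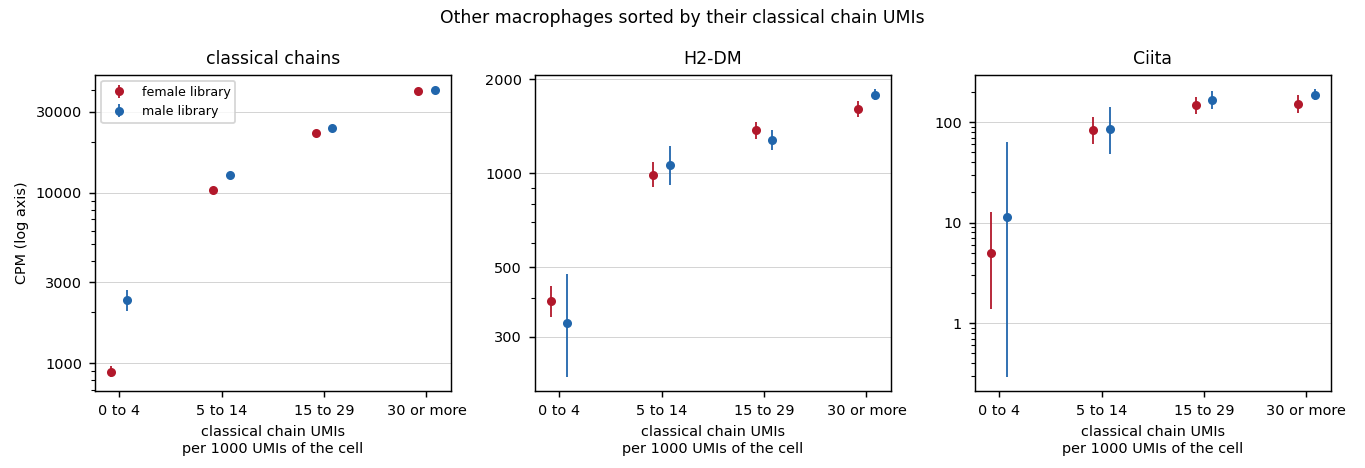
Level (CPM, log axis) of the classical chains, H2-DM and Ciita in other macrophages sorted by classical chain UMIs per 1000 UMIs of the cell, with exact 95% Poisson intervals. The chain panel is fixed by the sorting; H2-DM climbs from 390 to 1610 CPM in the female and from 333 to 1788 CPM in the male library, while in the lowest bin the chains stand at 897 CPM in the female and 2350 CPM in the male library.

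Other genes of the pathway were read from a list of 21, of which 20 were among the features. Ctss, the protease that trims the invariant chain to CLIP, stood at 2860 CPM in female and 2622 CPM in male other macrophages against 332 and 341 CPM in B cells. Lgmn, an endosomal endopeptidase, stood at 1085 and 1198 CPM in other macrophages. Ifi30, a thiol reductase of the endosome, stood at 456 and 431 CPM there. H2-Eb2, a relative of H2-Eb1, was counted at 46.4 and 33.7 CPM in B cells, and at 0 and 1 UMI in other macrophages. Pax5, the B cell identity factor, was at 194 and 206 CPM in B cells, and Irf8, a factor of type 1 dendritic cells, at 1228 and 1731 CPM in those cells.

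In other macrophages, where 7 members were past the fold between the libraries, 0 of the 14 pathway genes tested were, with a median log2 ratio of -0.11. Of all genes there 3.79% were higher in the male and 2.81% in the female library, so a count of 0 among 14 is near the background. Ctss had a ratio of 1.09 (1.05 to 1.13) and Lgmn of 0.906 (0.859 to 0.955). In the remaining classes with tested genes, 0 of 6 passed in Lyve1 macrophages (6.8% of genes higher in the male library), and 1 of 6 in Aldh1a2 macrophages (Spi1, higher in the male library at a ratio of 0.641, where 3.73% of genes were). In monocytes 1 of 7 passed, March1, a ligase that removes class II from the surface, higher in the female library at 2.15 (1.37 to 3.47), where 2.14% of genes were. Ifi30 was higher in the female library in type 1 (2.20, interval 1.45 to 3.42) and type 2 (2.27, 1.82 to 2.86) dendritic cells, as 1 of 4 and 1 of 3 genes tested, where 3.31% and 3.91% of genes were. In B cells 2 of 15 were higher in the male library (Lgmn and Irf4), where 4.11% of genes were, and in T cells 1 of 11 (Rfxank), where 2.71% were. In NK cells 2 of 12 were higher in the male library (Lgmn and Creb1), where 3.95% of genes were, and 1 in the female (Ctss), where 1.18% were.

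Likeness between members was read over the 20 class and library points, taken as log2(CPM + 10). The points share libraries and the correlations are descriptions. H2-Aa and H2-Ab1 had a Pearson r of 0.99, H2-DMa and H2-Ab1 0.98, H2-DMa and H2-DMb1 0.97 and Ciita and Cd74 0.96. H2-Oa and H2-Ob had 0.88, and H2-Aa and H2-Oa 0.18. H2-DMb2 lay between the chains and H2-O, with 0.78 to H2-Ob, 0.71 to Ciita, 0.68 to H2-DMa, 0.66 to Cd74, 0.64 to H2-Aa, 0.58 to H2-Oa and 0.52 to H2-DMb1. Among 8675 genes outside the list, the 5 most like the classical chains were Plekho1 (0.95), Fgd2 (0.94), Ctsh (0.92), Plekhm3 (0.92) and Ly86 (0.92). Those most like H2-DM were Plekho1 (0.95), Erp29 (0.93), Plekhm3 (0.93), Fgd2 (0.93) and Rassf4 (0.93). Those most like Ciita were Fgd2 (0.92), Cd180 (0.89), Pkib (0.89), Wdfy4 (0.89, also a marker of the type 1 dendritic cell gate) and Plekho1 (0.88). H2-O had other neighbours: Pafah1b3 (0.91), Kctd14 (0.90), Rps12 (0.88), Siglecg (0.88) and Rps25 (0.85). Siglecg, a lectin of the B cell surface, stood at 267 CPM in B cells of both libraries and at 22.8 and 31.2 CPM in type 1 dendritic cells.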

How the data were processed

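The deposited values are raw UMI counts per gene and barcode of 1 female and 1 male library. Per the labels and the study's methods, the authors made these counts from 10x 3′ reads (insert read of 55 bases) with Cell Ranger 4.0.0 on mm10 and removed empty and low-quality barcodes. DropletUtils 1.4.3 is also named in the submitters' processing notes. The libraries held 16218309 female and 9512670 male UMIs over 3963 and 2685 barcodes.

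Barcodes with at least 200 genes and at most 15% mitochondrial UMIs were kept. They left 3694 female and 2449 male cells after doublet removal. The study states a ceiling of 1.2%, which read as a percentage of UMIs passes 327 and 359 barcodes, far fewer than the cells the study describes, while the 15% ceiling leaves a number near those. The scale of the stated value could not be settled, and that reading was kept as an alternative only. Scrublet's own threshold marked 1 and 8 barcodes, so the highest scores were removed at 0.8% per 1000 barcodes. Cells were gated on at least 3 markers of a class and, with exceptions, at most 1 of another lineage. NK cell markers did not exclude T cells, and macrophage markers did not exclude Aldh1a2 macrophages. Monocytes had a looser limit on macrophage markers. This scoring was set after the files were seen and without the member genes. Graph clusters (resolution 2, 30 principal components, 2000 variable genes) were an alternative, as were a ceiling of 5% or none, no doublet removal, a stricter gate, the mean over cells, the class total without members and leaving out 5 cells.

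The members, marker lists and pathway list were chosen with earlier results of these data known. The genes named are the members, the pathway list and the 5 genes most like Ciita and each member sum, beside marker and gate genes (C1qa, Cd79a, Igkc and others) used to check classes. With 1 library per sex no test was run. Scripts were tested on simulated data. Python 3.11.15, numpy 2.4.6, scipy 1.17.1, pandas 2.3.3, scanpy 1.11.5 and matplotlib 3.10.9 were used.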

Additional observations from a re-analysis of the deposited data

How the results depend on the processing

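No female to male ratio past the fold changed direction under the alternatives run for it, and folds between classes other than the monocyte subsets were not recomputed. Of 154 alternative values of the H2-DM, H2-O and H2-DMb2 to H2-DMb1 ratios, 123 stayed within the interval of the value reported. So did 104 of 130 female to male ratios, 257 of 360 levels and 104 of 144 shares of cells. Without thinning 18 of 18 shares left their intervals. A 1.2% ceiling on mitochondrial UMIs moved 17 of 22 ratios of these 3 kinds, 10 of 14 female to male ratios and 34 of 40 levels. It leaves few cells (4 female and 16 male B cells, 47 and 59 other macrophages). Under it H2-DM per 100 chain UMIs was 8.79 and 5.17 in female and male other macrophages, 10.7 in male monocytes, and 10.0 and 15.3 in B cells; H2-O per 100 H2-DM was 8.65 in male type 2 dendritic cells and 32.7 in male B cells; the female to male ratio of the chains was 0.354 in other macrophages, 0.495 in monocytes, 0.146 in B cells and 0.934 in type 2 dendritic cells, and that of H2-DM in other macrophages 0.602. The H2-DM ratio of male monocytes, reported above that of male B cells (12.8 against 10.8), then lay below it, as it did with graph clusters (9.97 against 10.7), and that of female B cells lay below the male one. With graph clusters the monocyte H2-DM ratio was 15.3 and 9.97, and the type 2 dendritic cell chain ratio 0.811. Without the 5 richest cells the monocyte H2-DM ratio was 28.9 and 20.3, and the chain ratio 0.655 in monocytes, 0.568 in other macrophages and 0.882 in type 2 dendritic cells. As a mean over cells the chain ratio was 0.653, 0.662 and 0.913 in these classes and the H2-DM ratio in other macrophages 0.771. In other macrophages the chain ratio was 0.561 on a class total without the members and 0.562 under a 5% ceiling, and in monocytes it was 0.319 under a stricter gate. Without the cluster of 146 female and 3 male cells (chosen after seeing the data) 0 members were past the fold in other macrophages, the chain ratio was 0.706 and the H2-DM ratio 0.801. The cause of these shifts was not tested, beyond the number of cells left. H2-DMb2 per 100 H2-DMb1 UMIs, an alternative set chosen after seeing the data, ran from 200.0 to 782 in female and 579 to 1200 in male B cells and from 2.21 to 4.55 and 1.45 to 2.03 in other macrophages. Outside B and dendritic cells H2-O rests on small counts, such as 32 and 57 UMIs in other macrophages, and the part of depth was not tested. No paired analysis was possible because each sex has 1 library.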
